A study of Mus musculus with 12 samples.

Results

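The genes described here are 10 immediate early transcription factors, namely Fos, Fosb, Fosl2, Jun, Junb, Egr1, Egr2, Egr3, Nr4a1 and Atf3. They were chosen by gene symbol from the 14957 genes in the deposited count tables, with their wide variation between libraries of 1 group already known, so that variation is given as a description and was not tested. All 10 symbols were found and all 10 passed the filter on low counts, which kept 13910 genes. RNA was sequenced in bulk from the ventricles of 12 wild-type C57Bl/6J mice, 4 in each of 3 groups, and each library came from 1 mouse. Mice of the group Sham-NT were operated on without constriction and were given PBS. TAC-mScarlet mice had transverse aortic constriction (TAC), a band on the aorta that makes the left ventricle pump against a higher pressure, and received AAV9-MHCK7-mScarlet, an adeno-associated virus that carries a red fluorescent protein. TAC-BacNav mice had the same operation and received AAV9-MHCK7-BacNav-mScarlet, whose cargo is a bacterial voltage-gated sodium channel joined to that reporter. MHCK7 is a promoter active in heart and skeletal muscle, so the vectors were built to express in muscle cells. The groups were set up to ask whether the channel changes the failing heart. For sex, age and the times of operation, injection and tissue collection, the sources used here give nothing. Constriction and vector changed together between the sham and the constricted groups and cannot be told apart there.

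Immediate early genes are transcribed within minutes of a signal from proteins already in the cell, such as serum response factor with its ternary complex partners and CREB, and their mRNAs decay quickly. FOS and JUN proteins pair to form AP-1, ATF3 belongs to the related ATF family, EGR proteins are zinc finger activators that bind GC-rich sites, and NR4A1 is a nuclear receptor with no known hormone. In the heart they are known to respond to stretch, pressure load and adrenergic stimulation, and also to the handling of tissue before it is frozen.

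The start regions of these genes are shown first, as a description of their sequences. Of the 10 genes, 9 separated the 7 libraries highest in Fos from the other 5, Fos by construction. RefSeq promoter windows (GRCm38.p6) were found for 8 of the 10 members, with Egr2 in 5 windows, and the 250 bases before each start were searched on both strands. The 6 stretches below run 5′ to 3′ on the gene's own strand, from 160 to 11 bases before the RefSeq start. Capitals mark TGACG or its reverse complement CGTCA (the core of the site that CREB and ATF proteins bind), the CArG box bound by serum response factor, GCGNGGGCG or its reverse complement (the EGR site) and TATAAA. They are Fos at chr12:85473730-85473879 on the plus strand, Egr2 at chr10:67537709-67537858 on the plus strand, Nr4a1 at chr15:101266686-101266835 on the plus strand, Fosb at chr7:19310056-19310205 on the minus strand, Junb at chr8:84978759-84978908 on the minus strand and Jun at chr4:95052233-95052382 on the minus strand. No annotated exon lies in any of them.
Fos: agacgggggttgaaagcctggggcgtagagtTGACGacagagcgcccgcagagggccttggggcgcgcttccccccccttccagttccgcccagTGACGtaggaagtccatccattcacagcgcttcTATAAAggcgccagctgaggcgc
Egr2: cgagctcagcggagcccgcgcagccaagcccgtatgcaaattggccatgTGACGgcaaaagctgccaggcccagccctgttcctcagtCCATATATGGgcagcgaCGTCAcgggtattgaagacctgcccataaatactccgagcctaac
Nr4a1: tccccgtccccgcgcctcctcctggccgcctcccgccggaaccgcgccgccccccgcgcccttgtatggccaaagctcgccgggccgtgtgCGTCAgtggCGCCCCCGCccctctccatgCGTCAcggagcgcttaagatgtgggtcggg
Fosb: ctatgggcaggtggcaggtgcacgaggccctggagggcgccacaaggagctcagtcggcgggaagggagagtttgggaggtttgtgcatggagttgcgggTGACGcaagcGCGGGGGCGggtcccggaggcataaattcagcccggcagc
Junb: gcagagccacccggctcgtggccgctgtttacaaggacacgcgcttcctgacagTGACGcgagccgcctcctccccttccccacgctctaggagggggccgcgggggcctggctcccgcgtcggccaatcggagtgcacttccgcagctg
Jun: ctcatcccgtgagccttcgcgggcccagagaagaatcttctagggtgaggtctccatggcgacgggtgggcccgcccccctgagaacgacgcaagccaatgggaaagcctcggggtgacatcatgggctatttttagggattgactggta
The Fos stretch holds TGACG 129 and 66 bases before the start and TATAAA 33 bases before it. Egr2 holds TGACG at 111 bases, a CArG box at 72 bases and CGTCA at 55 bases before the start of the window shown, so its window has both a CArG box and the core. Nr4a1 holds CGTCA at 69 and 40 bases with an EGR site between them at 60 bases, and Fosb holds TGACG at 60 bases and an EGR site at 50 bases. Junb holds TGACG at 106 bases. The Jun stretch has no exact match to these sites. It does hold TGACATCA, which differs by 1 base from TGACGTCA, and such near matches were not searched for. Jun is shown as the member in which the libraries high and low in Fos overlapped across groups. The Fosl2 window also lacks TGACG, and Fosl2 had no such overlap. Any link between these sites and the levels of the genes was not tested. TGACG occurred in the windows of Fos, Fosb, Junb, Nr4a1 and Atf3 and in 3 of the 5 of Egr2, which is 8 of the 12 windows of members, and in 17.8% of all 32841 windows of the same length. The 5 windows of Egr2 overlap in part and are not independent. The EGR site occurred in 3 of the 12 (Fosb, Fosl2 and Nr4a1) and in 4.7% of all windows, the CArG box in 4 of the 12, all of Egr2, and in 1.47%, and TATAAA in 1 of the 12 (Fos) and in 12.4%. The full CREB site TGACGTCA (1.55% of windows), which contains the core, and the AP-1 site TGANTCA (6.75%) were in no member's window. These matches describe letters in the window, and binding was not measured. Egr1 and Egr3 had no window, and sites more than 250 bases before a start were not searched. A missing match therefore does not show that a gene lacks the site.

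Total counts per library ran from 5.36 to 11.5 M. The tissue was ventricular as labelled, since the ventricular light chain Myl2 was at 13671 to 29445 CPM and the atrial light chain Myl7 at 0.116 to 5.35 CPM. All 8 genes listed as ventricular cardiomyocyte markers (Myl2, Myl3, Myh6, Tnnt2, Tnni3, Actc1, Ryr2 and Pln) were present in every library, but not all of them tell ventricle from atrium. Their summed level was 80804 to 89822 CPM in Sham-NT, 51298 to 67846 CPM in TAC-mScarlet and 60824 to 82304 CPM in TAC-BacNav. M are mega-counts, and CPM are a gene's counts relative to the size of its library after TMM scaling, which takes most genes as unchanged between libraries. In the quasi-likelihood test of edgeR, with p-values adjusted by Benjamini and Hochberg's method over 13910 genes, TAC-mScarlet had 369 genes higher and 350 lower than Sham-NT, 719 in all. This count was 97 when TAC-mScarlet 3 was left out, 228 for TAC-mScarlet 4, 14 for Sham-NT 2, 20 for Sham-NT 4 and 256 for Sham-NT 1. TAC-BacNav differed from TAC-mScarlet in 0 genes (5 by DESeq2, and 467 at an unadjusted p below 0.05) and from Sham-NT in 2. Scaling by library size alone gave 698 higher and 205 lower genes in TAC-mScarlet and moved the median log2 fold change over the genes by 0.13, so changes are relative to TMM.

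Fos, which encodes the AP-1 subunit that pairs with JUN (chr12:85473890-85477273, plus strand, GRCm38), varied more between libraries of a group than any other gene tested. It was at 80.5, 54.9, 5.56 and 1.60 CPM in Sham-NT 1 to 4, at 301, 123, 154 and 7.89 CPM in TAC-mScarlet 1 to 4 and at 158, 225, 3.87 and 5.26 CPM in TAC-BacNav 1 to 4, where numbers are the mouse numbers in the labels. Sham-NT 1 and 2, TAC-mScarlet 1, 2 and 3 and TAC-BacNav 1 and 2 were therefore high, the other 5 were low, and every group had libraries of both kinds. The ratio of the highest to the lowest library was 50.2 within Sham-NT, 38.2 within TAC-mScarlet and 58.1 within TAC-BacNav. In these bulk samples, fewer cells of a type and less RNA per cell cannot be told apart.

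Fosb, a paralog of Fos with the same partner choice (chr7:19302696-19310051, minus strand), was at 11.1, 5.66, 1.55 and 0.481 CPM in Sham-NT 1 to 4, at 67.6, 16.5, 5.08 and 0.348 CPM in TAC-mScarlet 1 to 4 and at 25.3, 35.96, 0.534 and 0.822 CPM in TAC-BacNav 1 to 4. The same 7 libraries were high, but the order among them differed from that of Fos. TAC-mScarlet 3, the second highest of its group in Fos, was the third highest in Fosb, with a Fosb to Fos ratio of 0.0329 against 0.224 in TAC-mScarlet 1. The lowest libraries rest on 3 Fosb counts in Sham-NT 4, 3 in TAC-mScarlet 4 and 4 in TAC-BacNav 3, against 566 in TAC-mScarlet 1, so ratios to them are imprecise.

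Fosl2, which encodes the Fos-related antigen FRA-2 and is known to be expressed for longer than Fos after a stimulus (chr5:32135801-32157842, plus strand), had a narrower range. It was at 139, 61.3, 35.2 and 28.04 CPM in Sham-NT, at 171, 121, 83.1 and 56.6 CPM in TAC-mScarlet and at 200.2, 137, 35.5 and 38.4 CPM in TAC-BacNav. The 7 libraries were again the upper ones, but the gap was small, with Sham-NT 2 at 61.3 CPM just above TAC-mScarlet 4 at 56.6 CPM.

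Jun, which encodes the AP-1 subunit that can also pair with itself (chr4:95049034-95052222, minus strand, a single exon), had a narrower range than the other 9. Within each group the libraries high in Fos were also the upper ones in Jun. Only across groups did the libraries high and low in Fos overlap in Jun. Jun was at 77.9, 94.3, 66.5 and 68.6 CPM in Sham-NT, at 205, 186, 135 and 93.6 CPM in TAC-mScarlet and at 247, 199, 83.1 and 96.4 CPM in TAC-BacNav. Within Sham-NT the highest library was 1.42 times the lowest, although Fos in the same 4 libraries differed 50.2-fold, and within TAC-BacNav the ratio was 2.97. Sham-NT 1, which had 80.5 CPM of Fos, had less Jun than TAC-BacNav 3, which had 3.87 CPM of Fos. The Fos to Jun ratio therefore ran from 0.0234 to 1.47 over the libraries. Jun shares 232 exon bases with the antisense transcript Junos, and since no source used here gives the strand setting of the counting, reads of the 2 cannot be told apart.

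Junb, which encodes a JUN family member that often damps the activity of JUN (chr8:84974484-84978718, minus strand), was closer to Fos (r = 0.994 over the libraries, with group means removed) than to Jun (r = 0.854). It was at 118, 82.8, 16.8 and 10.1 CPM in Sham-NT, at 206, 127, 179.6 and 23.4 CPM in TAC-mScarlet and at 173, 166, 15.1 and 14.3 CPM in TAC-BacNav. The same 7 libraries stood above the other 5 with no overlap. Its annotation shares 173 exon bases with Prdx2 on the opposite strand, with the same limit on strand.

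Atf3, a stress-induced ATF family factor that represses many of its targets (chr1:191170296-191218039, minus strand), was at 84.7, 43.9, 17.9 and 11.7 CPM in Sham-NT. It was at 242, 108.5, 54.8 and 37.5 CPM in TAC-mScarlet and at 349.6, 155, 18.5 and 16.8 CPM in TAC-BacNav. TAC-BacNav 1 was the highest library, and TAC-mScarlet 3, high in Fos, was only a little above TAC-mScarlet 4 in Atf3.

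**Figure D1:**
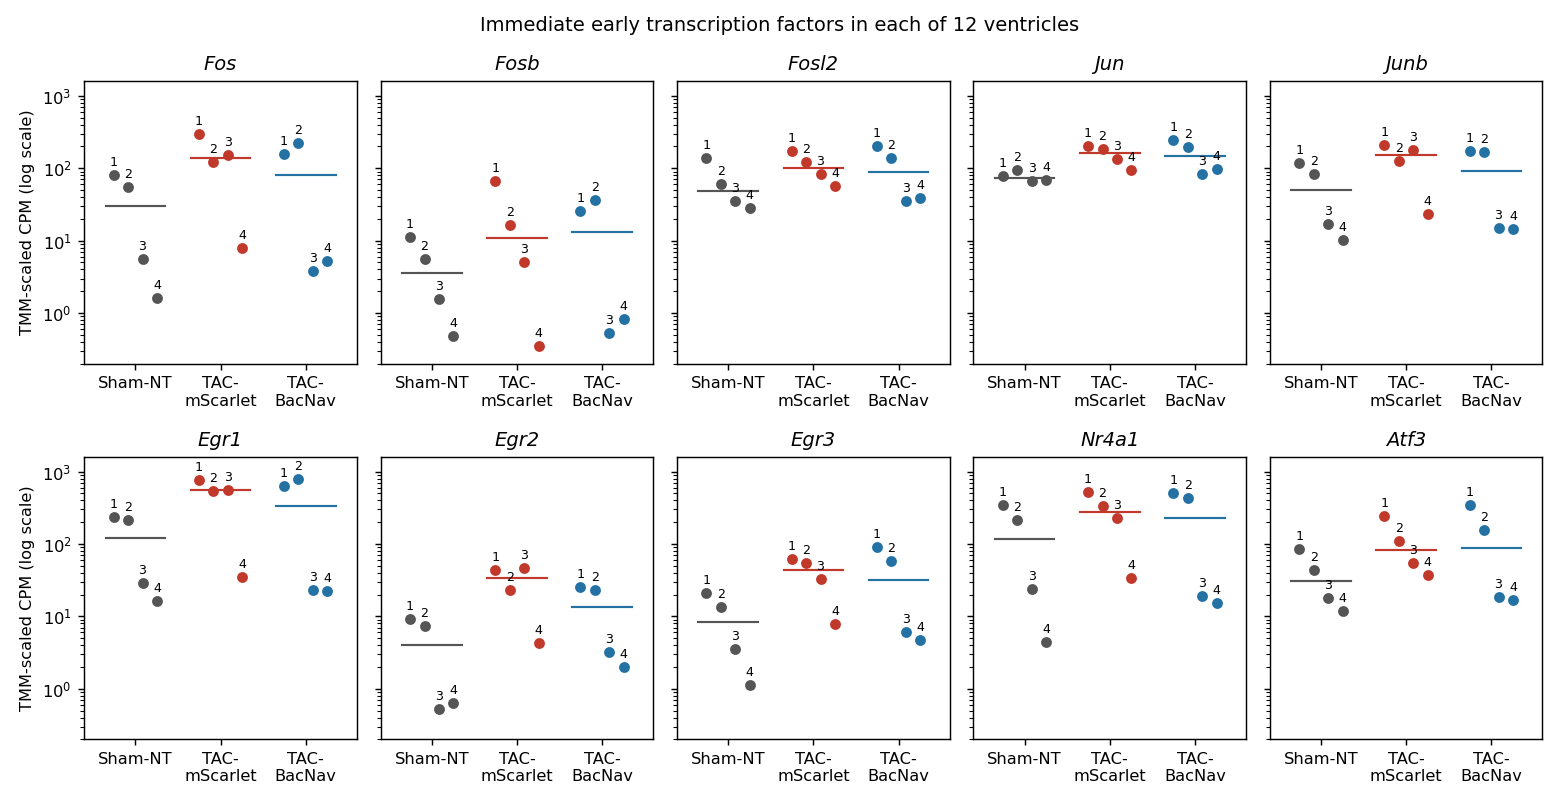
Level of each of the 10 genes in TMM-scaled CPM (vertical axis, log scale) in every library, by group (horizontal axis), with 1 point per mouse. Fos falls into an upper and a lower set inside each group (80.5 and 54.9 against 5.56 and 1.60 CPM in Sham-NT), whereas Fosl2 (171, 121, 83.1 and 56.6 CPM) and Atf3 (242, 108.5, 54.8 and 37.5 CPM) are graded in TAC-mScarlet, and Jun varies least.

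Among the EGR genes, Egr1, the most studied member of the family in the heart, reached the highest levels. It was at 232, 214, 29.1 and 16.3 CPM in Sham-NT, at 763, 539, 558 and 35.03 CPM in TAC-mScarlet and at 636, 785, 23.1 and 22.4 CPM in TAC-BacNav. The 5 high TAC libraries were at 539 CPM or more, above both high Sham-NT libraries. Among the low libraries, the lowest TAC library stood at 22.4 CPM, between the 2 low Sham-NT libraries.

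Egr2, known from nerve myelination and T cells (chr10:67535475-67542188, plus strand), was at 9.12, 7.42, 0.518 and 0.641 CPM in Sham-NT, at 43.97, 22.99, 47.2 and 4.29 CPM in TAC-mScarlet and at 25.1, 23.4, 3.20 and 1.97 CPM in TAC-BacNav. TAC-mScarlet 3 was the highest library, which held for no other member. The low Sham-NT values rest on 4 counts in each of Sham-NT 3 and 4. Egr3, known from T cells and from muscle spindles (chr14:70077203-70082614, plus strand), was at 21.01, 13.5, 3.49 and 1.12 CPM in Sham-NT, at 62.7, 53.9, 32.7 and 7.77 CPM in TAC-mScarlet and at 89.75, 57.7, 6.14 and 4.69 CPM in TAC-BacNav. For both genes the 7 libraries were above the other 5, and even the lowest library of either TAC group was above the 2 low Sham-NT libraries.

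Nr4a1, which encodes the nuclear receptor NUR77 (chr15:101254269-101274795, plus strand), was at 341, 211, 23.9 and 4.49 CPM in Sham-NT, at 524, 329.8, 231 and 33.9 CPM in TAC-mScarlet and at 498, 436, 18.8 and 15.2 CPM in TAC-BacNav. The high Sham-NT libraries came closer to the high TAC libraries than for Egr1, since Sham-NT 1 was above TAC-mScarlet 2 and 3. The Nr4a1 to Egr1 ratio accordingly ran from 0.275 to 1.47.

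Because longer transcripts collect more reads, levels of different genes were compared as mean CPM per kilobase of exon over the 12 libraries. The length is that of all annotated exons of a gene merged, 6243 bases for Fosb and 9680 for Fosl2. It can exceed the length of the transcripts present, which would lower the value. On that scale the order of levels was Egr1 (71.6), Nr4a1 (63.3), Atf3 (44.2), Junb (41.02), Jun (40.6), Fos (39.7), Fosl2 (9.52), Egr3 (6.70), Egr2 (4.65) and Fosb (2.28). The library ranges of neighbours in this order overlapped, and the order of the upper 6 differed between groups. In Sham-NT Nr4a1 (41.4) was above Egr1 (27.4), followed by Junb (24.8), Jun (24.1), Atf3 (18.4) and Fos (15.1). In TAC-mScarlet Egr1 and Nr4a1 (79.7) were followed by Fos (62.4), Junb (58.3), Atf3 (51.4) and Jun (48.6), and in TAC-BacNav Egr1 (81.8) and Nr4a1 (69.0) by Atf3 (62.7), Jun (49.0), Fos (41.7) and Junb (40.01). Fosb was thus the lowest member per length although its mRNA had the widest range, and Egr2 and Egr3 were far below Egr1.

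The spread within groups set most members apart from other genes, which is what they were chosen for. The SD of log2(CPM + 1) within groups was 2.55 for Fos, 2.45 for Nr4a1, 2.31 for Egr1 and 2.13 for Fosb, the 4 largest among the 13910 genes tested. Junb (1.71), Egr3 (1.66), Atf3 (1.59) and Egr2 (1.54) had ranks 9, 11, 12 and 14, whereas Fosl2 (1.01) had rank 75 and Jun (0.55) rank 670. The median was 1.69 over the 10 members and 0.26 over all genes. From the highest to the lowest of the 12 libraries the ratio was 194 for Fosb, 188 for Fos, 117 for Nr4a1, 91.1 for Egr2 and 80.02 for Egr3, then 48.1 for Egr1, 29.9 for Atf3, 20.4 for Junb, 7.14 for Fosl2 and 3.71 for Jun.

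The members were high and low in the same libraries. After the mean of each group was removed, Pearson's r of a member with the mean of the other 9 over 12 libraries was 0.990 for Egr3, 0.989 for Fos, 0.987 for Junb, 0.985 for Egr1 and 0.976 for Nr4a1. It was 0.952 for Egr2, 0.952 for Fosl2, 0.941 for Atf3, 0.938 for Fosb and 0.895 for Jun. The 45 pairs of members ranged from 0.820, for Jun with Egr2, to 0.994, with a median of 0.929. These values share libraries and depth and are a description of genes chosen for this pattern.

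The 7 libraries highest in Fos were Sham-NT 1 and 2, TAC-mScarlet 1, 2 and 3 and TAC-BacNav 1 and 2. For 9 of the 10 members, all except Jun, these lay above the other 5 libraries, as did 1.45% of all genes tested. The split was drawn from Fos, so Fos meets it by construction, and the share over all genes includes the members. In the opposite order, with those 7 libraries below the other 5, were 1.17% of all genes. The 7 libraries held 5.36 to 9.81 M counts and the other 5 held 6.61 to 11.5 M, so the ranges of depth overlapped. By mouse number, mice 1 and 2 were the upper 2 for all 10 members in Sham-NT and for all 10 in TAC-BacNav. In TAC-mScarlet, mouse 1 was among the upper 2 for all 10 members, mouse 4 was lowest for all 10, and the other upper place went to mouse 2 for 6 members and to mouse 3 for 4. The labels do not say what a mouse number stands for, so an order of operation, collection or extraction was not tested.

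The first comparison asks what pressure overload with the control vector did to these genes relative to sham. None of the 10 passed the test across all genes. All 10 estimates were above 0, as were those of 50.5% of all genes. The members varied together between libraries (median r of 0.929 over pairs), so their signs and median are not 10 separate observations. The median log2 fold change was 1.73 over the members and 0.0044 over all genes. In edgeR, 0 of 10 members were called and 2 (Jun and Egr2) had an unadjusted p below 0.05, while 5.17% of all genes were called (2.65% higher and 2.52% lower) and 22.2% had an unadjusted p below 0.05. DESeq2 called 1 member, Jun, and limma-voom called 0. An edgeR fit with the mouse number as a replicate block called 5 (Jun, Egr3, Egr2, Atf3 and Fosl2), but the labels do not say that libraries of the same number belong together. No member had groups that did not overlap, against 13.1% of all genes.

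Jun had the smallest spread and the narrowest interval. It averaged 155 ± 50.5 CPM in TAC-mScarlet and 76.8 ± 12.7 CPM in Sham-NT (SD, n = 4 each), with 3 of 4 TAC-mScarlet libraries above every Sham-NT library and the fourth just inside the sham range. Its log2 fold change was 1.01 ± 0.35 (SE), with a 95% interval of 0.26 to 1.77 and an edgeR adjusted p of 0.110. The adjusted p was 0.0200 by DESeq2, 0.0329 in an edgeR fit of only the 2 groups and 0.0981 by limma-voom, so whether Jun passed depended on the method.

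Egr2 had the largest estimate, 2.84 ± 1.15 on the log2 scale, with an interval of 0.25 to 5.43 and an edgeR adjusted p of 0.186. It averaged 29.6 ± 20.0 CPM in TAC-mScarlet against 4.42 ± 4.49 CPM in Sham-NT, and 3 of 4 TAC-mScarlet libraries were above every Sham-NT library. Fosb (2.32 ± 1.60), Fos (2.07 ± 1.54), Egr3 (2.06 ± 1.16) and Egr1 (1.95 ± 1.40) had estimates of similar size with SEs above 1. For Fos the interval ran from -1.39 to 5.52, which covers both a decrease and a large increase. Atf3 (1.50 ± 1.10), Junb (1.25 ± 1.09), Nr4a1 (0.95 ± 1.44) and Fosl2 (0.72 ± 0.70) had smaller estimates. The edgeR adjusted p of these 8 genes ran from 0.336 to 0.762. Fos, Egr1, Egr3 and Junb each had 3 of 4 TAC-mScarlet libraries above the highest Sham-NT library, Fosb and Atf3 had 2, and Fosl2 and Nr4a1 had 1. Fosb was also the member with a TAC-mScarlet library below every Sham-NT library, but this rests on 3 counts in TAC-mScarlet 4 (0.348 CPM) against 3 in Sham-NT 4 (0.481 CPM).

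The second comparison asks whether the sodium channel changed these genes in constricted hearts. The libraries of the 2 groups overlapped for every member, and no difference was detected at this spread. In edgeR 0 of 10 members were called, 0 had an unadjusted p below 0.05 and every adjusted p was 0.9995, while 0% of all genes were called and 3.36% had an unadjusted p below 0.05. DESeq2 and limma-voom also called 0 members. No member had groups that did not overlap, against 1.70% of all genes. The estimates were below 0 for 7 members and above 0 for 3, against 49.2% and 50.8% of all genes, with a median of -0.29. The interval was narrowest for Jun, at -0.73 to 0.75 around an estimate of 0.013 ± 0.34. For Fos the estimate was -0.58 ± 1.45 with an interval of -3.84 to 2.67, and for Egr2 it was -1.15 ± 0.99 with an interval of -3.39 to 1.08, so these intervals allow large differences either way.

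The third comparison sets constricted hearts with the sodium channel against sham. It shares its Sham-NT libraries with the first, so the values are given side by side and no overlap was counted. All 10 estimates were above 0, as were those of 51.1% of all genes, with a median log2 fold change of 1.53 against 0.0079 over all genes. As in the first comparison, members that vary together do not give 10 separate observations. By edgeR 0 of 10 members were called, 1 (Jun) had an unadjusted p below 0.05, and DESeq2 and limma-voom called 0, while 0.0144% of all genes were called by edgeR and 11.1% had an unadjusted p below 0.05. No member had groups that did not overlap, against 5.45% of all genes. Jun averaged 156 ± 79.4 CPM against 76.8 ± 12.7 CPM (SD, n = 4 each), a log2 fold change of 1.03 ± 0.35 with an interval of 0.27 to 1.78 and an edgeR adjusted p of 0.367. The Jun estimate was thus close to the 1.01 found with the control vector, with 3 of 4 libraries above the sham range in both. The other estimates were 2.07 for Egr3, 1.81 for Fosb, 1.79 for Atf3, 1.69 for Egr2 and 1.58 for Egr1, followed by 1.48 for Fos, 0.74 for Nr4a1, 0.71 for Junb and 0.65 for Fosl2. Fos, Fosb, Junb, Egr1, Egr2, Egr3, Nr4a1 and Atf3 each had 2 of 4 TAC-BacNav libraries, mice 1 and 2, above the highest Sham-NT library, and Fosl2 had 1.

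**Figure D2:**
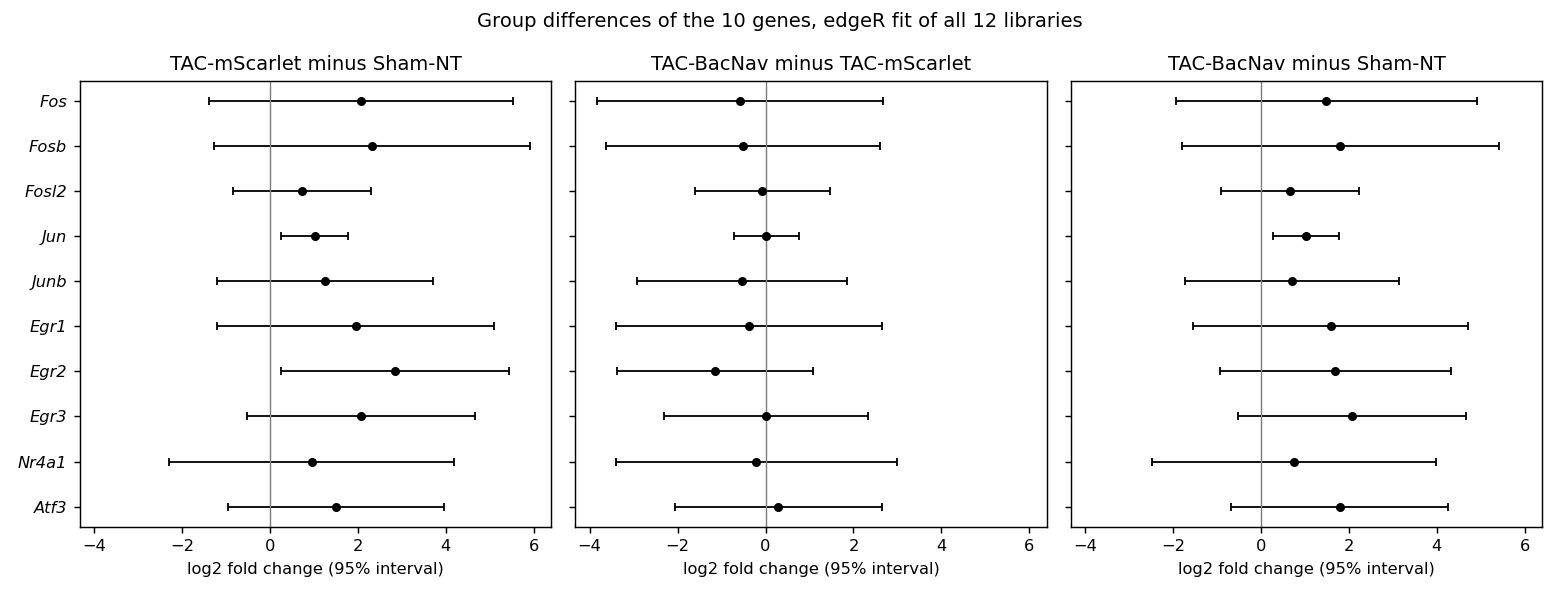
Log2 fold change (horizontal axis) of each of the 10 genes (vertical axis) in the 3 comparisons, with points for the edgeR estimate and bars for the 95% interval. In TAC-mScarlet minus Sham-NT and TAC-BacNav minus Sham-NT all 10 points lie right of 0, and the bars of Jun (0.26 to 1.77 in the first) are the narrowest.

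Other genes of these families and of the pathways around them were read in the same fit. In TAC-mScarlet against Sham-NT, 5.17% of all genes were called, and counts of called genes in the lists below stand beside that share. Of the other AP-1 and ATF genes, 13 were tested and their r with the mean of the 10 members had a median of -0.12, with 7 below 0 and 0 of 13 at 0.9 or above. Jund, which is known to be expressed steadily, was highest among them at 0.799. In TAC-mScarlet against Sham-NT, Mafk, a small MAF protein, rose by 0.82 ± 0.18 (edgeR adjusted p = 0.0236) and the other 12 were not called.

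Among 7 other EGR and NR4A genes with their corepressors, the receptor gene Nr4a2 followed the 10 members with r = 0.984. Nr4a2 was at 30.1, 9.37, 2.59 and 1.60 CPM in Sham-NT, at 56.9, 34.1, 22.8 and 2.32 CPM in TAC-mScarlet and at 83.0, 48.03, 3.60 and 3.37 CPM in TAC-BacNav. It thus had the same high and low libraries as Nr4a1. Nab2, an EGR corepressor that EGR1 switches on, had r = 0.778, and Nr4a3 had r = 0.743. None of the 7 was called in any of the 3 comparisons.

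The factors and kinases that act before the immediate early genes varied in both directions relative to them at the mRNA level. The 13 upstream factors (SRF, ternary complex, MRTF and CREB genes) had a median r of 0.067 and the 16 MAP and CaM kinases a median r of -0.0052, with 8 of the factors and 8 of the kinases above 0 and no r at 0.9 or above in either list. The highest values were those of Mapk14 (0.774), the CREB coactivator gene Crtc1 (0.715) and Crem (0.706), and the lowest those of Braf (-0.735), Mrtfb (-0.631) and Ep300 (-0.629). Srf had r = 0.067 and ranged from 30.2 to 59.96 CPM. In TAC-mScarlet against Sham-NT, Elk3, a ternary complex factor, rose by 0.56 ± 0.14 (edgeR adjusted p = 0.0353), and Mapk14, which encodes the stress kinase p38 alpha, fell by 0.56 ± 0.15 (edgeR adjusted p = 0.0419). The other 12 factors and 15 kinases were not called.

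Feedback inhibitors of the same pathways did share the pattern in part. Of 12 tested, Dusp1, Dusp5 and Errfi1 had r of at least 0.9, and the median was 0.74. Dusp1, a phosphatase that switches off MAP kinases and is itself an immediate early gene, ran from 77.7 CPM in Sham-NT 4 to 496 CPM in TAC-BacNav 2. In TAC-mScarlet against Sham-NT, Spry1 rose by 0.74 ± 0.20 (edgeR adjusted p = 0.0442) and Spred1 by 0.55 ± 0.13 (edgeR adjusted p = 0.0333), both inhibitors of RAS signalling, and the other 10 were not called.

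Of 38 other immediate early genes, 10 had r of at least 0.9, namely Apold1, Btg2, Csrnp1, Ccn1, Gem, Ier2, Zfp36, Plk3, Thbs1 and Sik1, against 0.791% of 13784 genes with a mean of at least 1 CPM. The genes of this list were gathered because they respond as the 10 members do, so the count is no separate evidence. In TAC-mScarlet against Sham-NT, 5 of the 38 rose, 1 fell and 32 were not called, while 2.65% of all genes rose and 2.52% fell. Those that rose included Socs3, a cytokine feedback inhibitor (1.09 ± 0.30, edgeR adjusted p = 0.0498), Ier5 (0.93 ± 0.20, 0.0245), and the mRNA decay factors Zfp36l2 (0.85 ± 0.17, 0.0229) and Zfp36l1 (0.68 ± 0.18, 0.0379). Rgs2, an inhibitor of G protein signalling, fell by 1.48 ± 0.25 (edgeR adjusted p = 0.0150). The 10 genes of these lists named above as rising or falling each lost the call in at least 1 of 8 fits that left out a library, all 10 without Sham-NT 2 (and likewise without Sham-NT 4), 9 without TAC-mScarlet 3, 6 without Sham-NT 1, 4 without each of TAC-mScarlet 1 and 4, 3 without Sham-NT 3 and 1 without TAC-mScarlet 2. No gene of any of these lists was called by edgeR in TAC-BacNav against TAC-mScarlet.

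The 10 genes most like the members, by r with the mean of the members over 12 libraries, were Apold1 (0.996), Btg2 (0.994), Csrnp1 (0.988), Xpnpep2 (0.986), Nkain4 (0.985), Upk3b (0.985), Cybrd1 (0.985), Nr4a2 (0.984), Dusp1 (0.984) and Msln (0.981). Apold1, an immediate early gene of endothelial cells, was at 186, 127, 28.6 and 16.7 CPM in Sham-NT, at 306, 238, 175 and 34.1 CPM in TAC-mScarlet and at 441, 334, 32.02 and 37.8 CPM in TAC-BacNav. It had the same 7 high libraries as Fos. Msln and Upk3b are markers of mesothelium, the cell layer that covers the outer surface of the heart, and are not immediate early genes. With Fos alone the closest genes were Msln (0.990), Apold1 (0.989), Xpnpep2 (0.987), Upk3b (0.985) and Btg2 (0.983).

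The 10 genes with the most opposite pattern were Depp1 (-0.981), Acer2 (-0.981), Ly6c1 (-0.977), Jcad (-0.968), Septin8 (-0.967), Fam120a (-0.958), Heatr5a (-0.956), Zfp946 (-0.953), Ddit4 (-0.947) and Fkbp5 (-0.946). An r of -0.9 or below was found for 0.392% of genes with a mean of at least 1 CPM. Ddit4, an inhibitor of mTOR signalling induced by glucocorticoids and low oxygen, ran from 7.67 to 79.6 CPM and was lowest in TAC-BacNav 1, where Atf3 and Jun were highest. None of these 20 genes was called in any of the 3 comparisons.

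**Figure D3:**
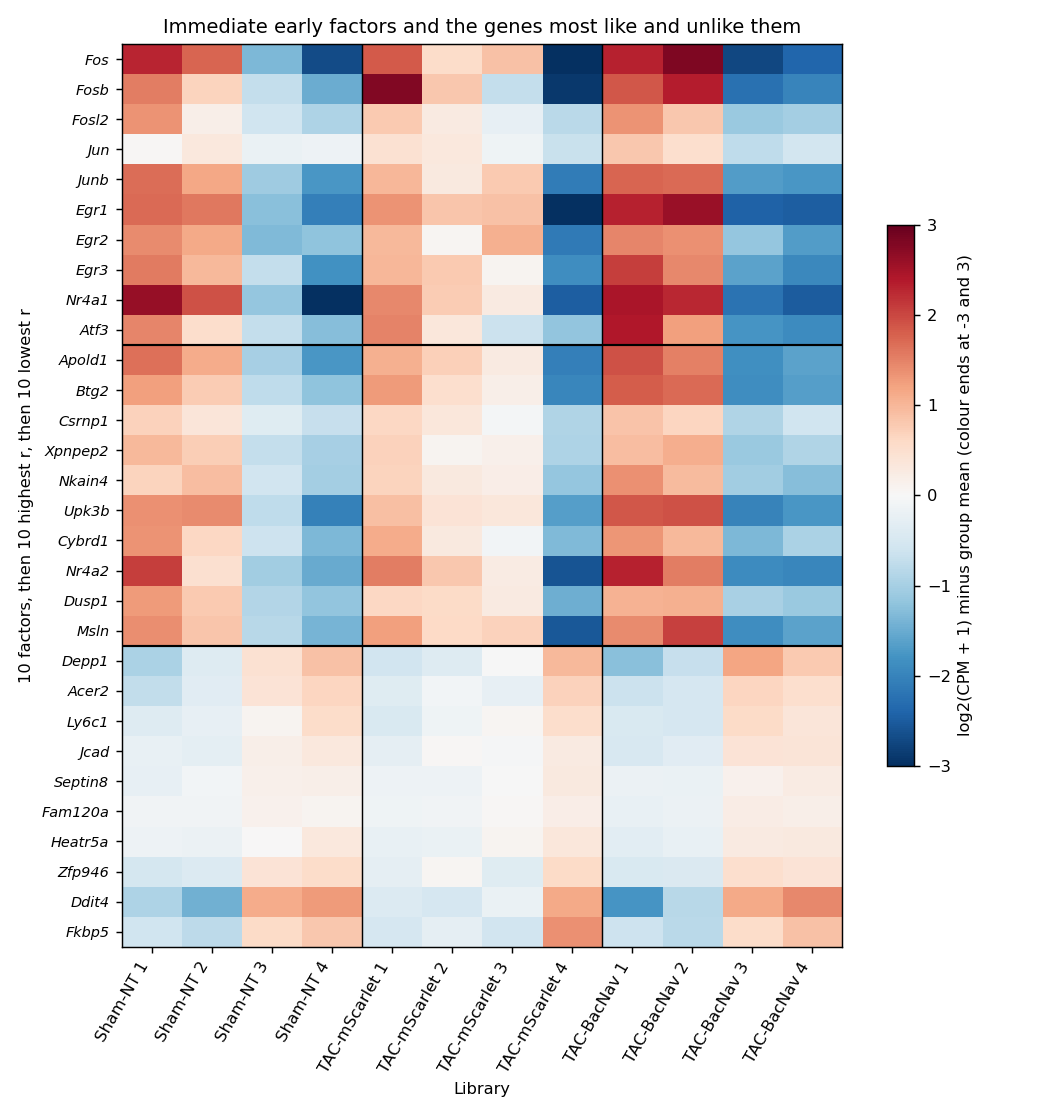
Heat map of log2(CPM + 1) minus the group mean for the 10 factors, the 10 genes with the highest r and the 10 with the lowest r (rows) in the 12 libraries (columns), with colour from -3 to 3. The 10 genes with the lowest r, such as Depp1 (-0.981) and Fkbp5 (-0.946), run the other way from Fos within the groups.

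Lists of genes linked to handling, hour of the day and stress hormones were read beside the members. All 9 heat shock genes tested had r below 0, from Hspa8 (-0.89) to Hspe1 (-0.047), with a median of -0.74. TAC-mScarlet 4 had the highest level of Hspa8, Hsph1 (-0.87) and Hspa1a (-0.84). Of 11 glucocorticoid-responsive genes, 8 had r below 0 and 3 above, with a median of -0.45. Fkbp5 (-0.946) and Tsc22d3 (-0.942) were at -0.9 or below, and Errfi1 was at 0.901. Of 14 clock genes none was at 0.9 or above or at -0.9 or below, and the median was -0.25. They ran from Per2 (-0.85) to Per1 (0.66), with 9 below 0 and 5 above. No gene of these 3 lists was called in any comparison. The part of handling, hour of collection or hormone level in the variation of the members was not tested.

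**Figure D4:**
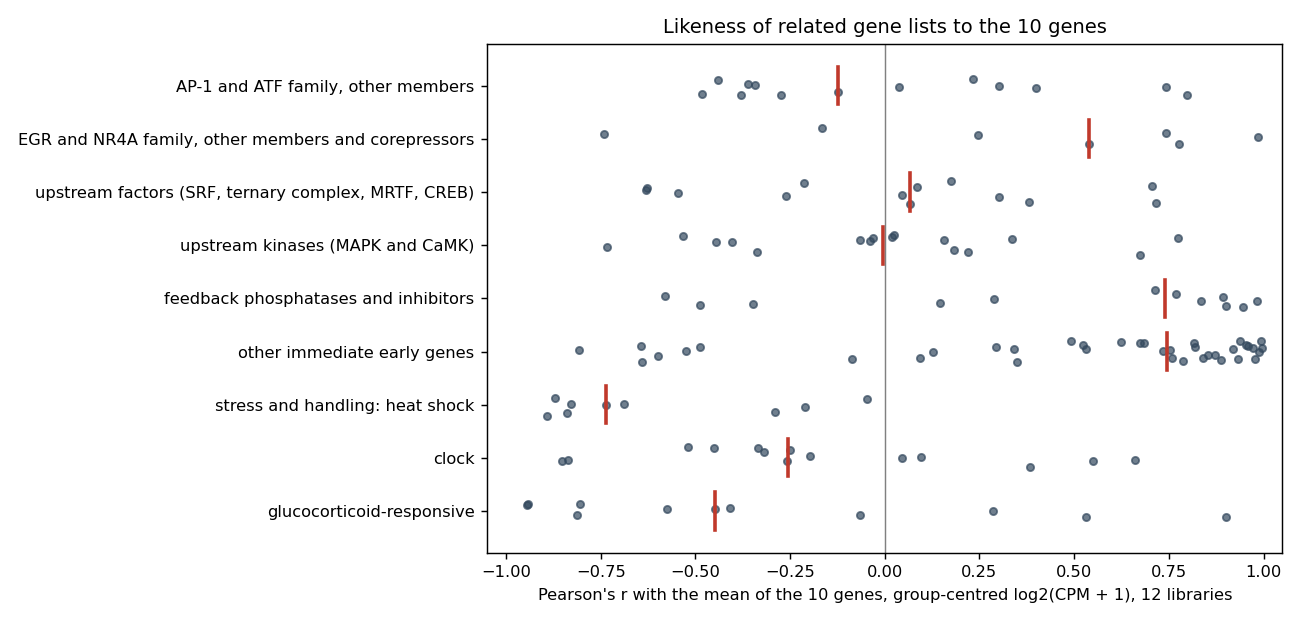
Pearson's r of each gene with the mean of the 10 members over 12 libraries (horizontal axis) for 9 related lists (rows), with 1 point per gene and a red bar at the median of each list. Other immediate early genes and feedback inhibitors have medians of 0.74, and heat shock genes lie entirely below 0.

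Markers of other cell types in the ventricle were read in the same way. Of 8 mesothelial markers (Msln, Upk3b, Wt1, Krt19, Lrrn4, Upk1b, Krt8 and Muc16), 7 had r of at least 0.9 with the members and Wt1 had 0.667. Their summed level was 121, 92.7, 25.6 and 16.0 CPM in Sham-NT, 77.3, 57.1, 54.5 and 20.6 CPM in TAC-mScarlet and 108, 114, 15.3 and 14.1 CPM in TAC-BacNav, and no marker was at 0 in any library. The 7 libraries high in Fos were thus also the 7 highest in mesothelial markers, at 54.5 to 121 CPM against 14.1 to 25.6 CPM, and r of the sum with the members was 0.986. None of the 8 was called by edgeR in any comparison (smallest adjusted p 0.630, for Wt1 in TAC-mScarlet against Sham-NT), and the sum ran from 16.0 to 121 CPM in Sham-NT, 20.6 to 77.3 CPM in TAC-mScarlet and 14.1 to 114 CPM in TAC-BacNav.

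The atrial light chain Myl7 had r = 0.934 at 0.116 to 5.35 CPM, but Myl4 had 0.258 and Nppa, which is also induced in stressed ventricles, had -0.708. The neutrophil genes S100a8 (0.836), S100a9 (0.826) and Csf3r (0.551) varied in the same direction. Fibroblast markers had r between -0.36 and 0.23 and macrophage markers between -0.092 and 0.53. Endothelial markers lay between -0.85 and 0.68, and ventricular cardiomyocyte markers between -0.16 and 0.67. Smooth muscle and pericyte markers ran from -0.78 to 0.79, erythroid genes from 0.039 to 0.42 and lymphocyte genes from 0.063 to 0.39. Of 5 genes searched as adipocyte markers, only Fabp4 was in the deposited counts. It had r = -0.60 at a mean of 1481 CPM, and adipocyte content cannot be read from this 1 gene. The part of mesothelial, atrial or neutrophil content in the variation of the 10 members was not tested.

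**Figure D5:**
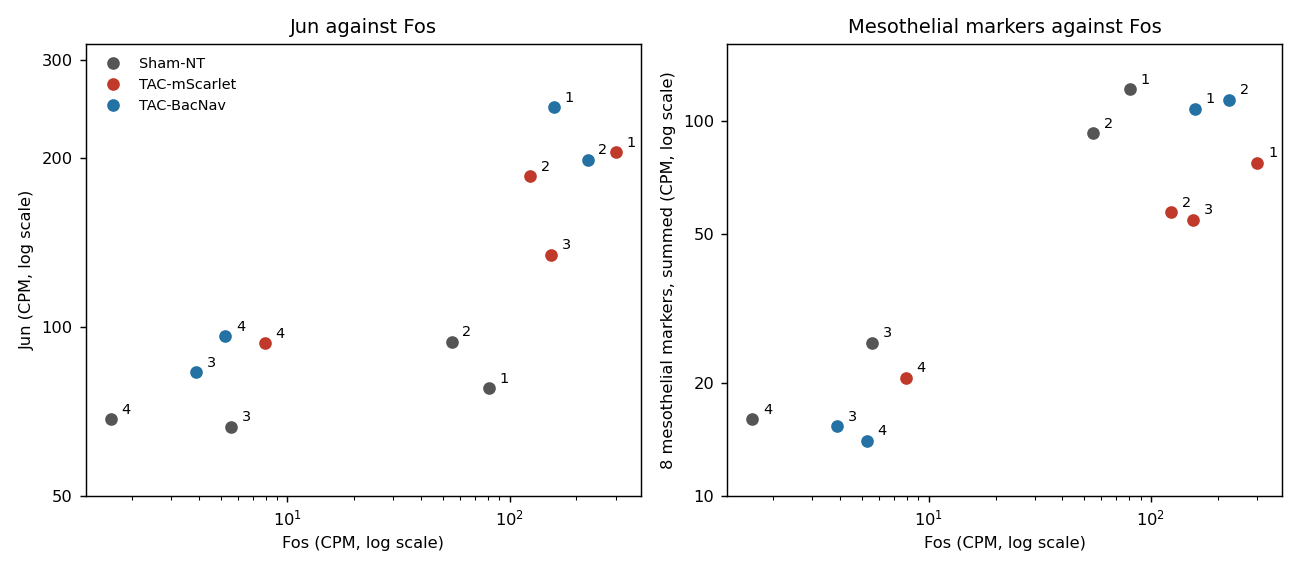
Jun (left) and the summed level of 8 mesothelial markers (right) against Fos, all in CPM on log axes, with 1 point per mouse, coloured by group and labelled with the mouse number. Jun is at 77.9 and 94.3 CPM in the 2 Sham-NT mice high in Fos, near the mice low in Fos, whereas the mesothelial sum is at least 54.5 CPM in all 7 libraries high in Fos.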

How the data were processed

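Bulk RNA from the ventricles of 12 mice was analysed, with groups taken from the mouse names given in the labels. The authors' deposited tables hold whole-number read counts per gene, 1 table per mouse. The submitters' processing notes name HISAT2 as aligner and featureCounts as counter. Their versions and the strand setting are not given in the sources used. The notes name GRCh38, whereas the deposited identifiers are mouse, and positions come from GENCODE vM21 (GRCm38), which holds 14474 of the 14957 identifiers in the same version and 14946 in any version. The smallest gene total was 30 counts, so the deposited tables hold no gene with a lower total.

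Counts were fitted with edgeR 4.0.16 (R 4.3.3, TMM scaling, filterByExpr, robust quasi-likelihood, 1 model of 12 libraries), and 1047 genes were removed by the filter. Tests were two-sided, and a gene was called at an adjusted p below 0.05 over all genes. SEs are the fold change over the square root of F. The pipeline was tested on simulated counts. Any 2 libraries of a group differed by more than sampling noise (chi-square per degree of freedom at least 5.70). Each library is a separate mouse, so p-values measure the spread between mice. The total per library, 5.36 to 11.5 M, limits genes with few counts.

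Likeness is Pearson's r of a gene's group-centred log2(CPM + 1) with the mean of the members. The members, lists and rules were chosen with earlier results of these data known. Named are all members, the 10 genes with the highest and lowest r, the 5 closest to Fos, from each list up to 4 called genes per direction and comparison and up to 4 of widest spread, and from each marker list the most abundant and the most variable gene. Other genes of the lists and markers (Jund, Srf, Socs3 and those given for an extreme r, for example) were picked out for mention after their values were seen. Alternatives were library size and RLE scaling, no filter, DESeq2 1.42.0, limma-voom (limma 3.58.1), fits of 2 groups, a replicate block, and leaving out each library. The result of 1 gene of the lists is not reported here.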

Additional observations from a re-analysis of the deposited data

How the results depend on the processing

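The 450 refits of a member in a comparison reused the same 12 libraries and are not separate evidence. All estimates against Sham-NT kept their sign, but their size varied. In TAC-BacNav against Sham-NT, Nr4a1 ran from 0.11 to 1.61 and Jun from 0.72 to 1.24. In TAC-mScarlet against Sham-NT, 143 of 150 stayed uncalled and 7 became called. In that comparison the number of members called was 1 (Jun) by DESeq2, 1 (Jun) with only the 2 groups fitted, and 0 in every fit that left out a library. The number of all genes called was 719, but 1371 by DESeq2 and 475 by limma-voom. It ran from 14 (without Sham-NT 2) to 1055 when libraries were left out. For TAC-BacNav against TAC-mScarlet the count over all genes was 1 with only the 2 groups fitted and 5 by DESeq2, and in TAC-BacNav against Sham-NT it was 1 and 38, with 0 to 15 when libraries were left out. The causes were not tested.

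Mouse numbers recur across groups, and the labels do not say that they mark shared animals or days. Over all genes, 8 of 12 same-number pairs had a correlation of deviations above 0.1 (range -0.318 to 0.414) and 7 of 24 best matches shared a number, so pairing was not taken as shown. With the mouse number as a replicate block, 5 members (Jun, Egr3, Egr2, Atf3 and Fosl2) were called, all higher in TAC-mScarlet relative to Sham-NT, and 0 in the other comparisons. Over all genes the block gave 889, 6 and 12 calls.

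In TAC-BacNav against TAC-mScarlet, 27 of 150 estimates turned sign, none of them called. With library size scaling Jun was -0.031 and Egr3 -0.055. With the block Jun was -0.052, Egr3 -0.52 and Atf3 -0.29. By limma-voom Jun was -0.070, Egr3 -0.70 and Atf3 -0.42. Leaving out libraries gave -1.40 to 0.037 for Fos, -1.34 to 1.09 for Fosb, -0.62 to 0.24 for Fosl2, -0.30 to 0.23 for Jun, -1.06 to 0.035 for Egr1, -0.79 to 0.40 for Egr3, -0.84 to 0.29 for Nr4a1 and -0.80 to 1.01 for Atf3. Of the 20 genes most and least like the members, 8 were shared with Spearman's correlation, 9 without centring and 13 to 18 when libraries were left out. Depth limits Fosb and Egr2, which have under 5 counts in some libraries.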
